A study of Mus musculus with 4 samples.

Results

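The scaffold proteins of the excitatory postsynapse were followed through their genes: the 4 Dlg genes (Dlg1 to Dlg4), the 3 Shank genes (Shank1 to Shank3) and the 3 Homer genes (Homer1 to Homer3). They were taken by gene symbol, with earlier results of these data known, and make up 10 of the 26328 genes listed in at least 1 sample. RNA-seq was performed on the hippocampus of male C57BL/6 mice, with 2 wild-type (WT) and 2 Lsd1 knock-in (KI) samples. In the KI mice the serine of LSD1 that protein kinase C alpha phosphorylates is replaced by alanine, and the WT mice lack this change. LSD1, the product of Kdm1a, is a histone demethylase that acts in transcriptional repressor complexes, and the comparison asks what its phosphorylation does to hippocampal expression. The labels give an age of 8 to 15 weeks for the mice used in behaviour and no age for those that were sequenced, nor do they say whether each sample is 1 animal, so that p-values measure only the spread between these samples. No source used here limits the knock-in to a tissue, and whole hippocampus holds neurons, glia and vessels together, so that fewer cells of a type and less RNA per cell cannot be told apart.

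The postsynaptic density is built in layers. Proteins of the Dlg family, of which PSD-95 (the product of Dlg4) is the best known, sit under the membrane and hold NMDA receptors, AMPA receptor auxiliary subunits, potassium channels and neuroligins through their PDZ domains. Below them lie proteins of the Dlgap family, which join the Dlg layer to the Shank proteins, and Shank and Homer proteins together form a deeper mesh that reaches inositol trisphosphate receptors and the actin cytoskeleton. Loss of a copy of SHANK3 causes Phelan-McDermid syndrome in humans, and neuronal activity induces a short Homer1 form that lacks the coiled coil and loosens the mesh.

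The promoters of the scaffold genes are shown first because LSD1 acts at chromatin and because its phosphorylation has been linked to the CLOCK and BMAL1 factors, which bind E-boxes. RefSeq windows of the GRCm38.p6 build, each reaching from 250 bases before to 50 bases after an annotated start, were matched for 8 of the 10 genes, in 18 windows, and no window was matched for Shank1 and Shank2. In the windows printed here, capitals mark an E-box (CACGTG), a half-site of the cyclic AMP response element (TGACG) or a GC box (GGGCGG), each found on either strand. The Dlg1 window (chr16:31663193-31663492, plus strand) is shown for its E-box, which 2 of the 4 Dlg1 windows had and no other scaffold window. The Dlg4 window (chr11:70023732-70024031, plus strand) belongs to the most abundant gene and is 1 of its 3 windows. Its start lies 7040 bases from the annotated gene start. The other 2 Dlg4 windows, with starts at 261 and 1663 bases from it, held none of these motifs. The Homer1 window (chr13:93303507-93303806, plus strand) is shown for its 3 half-sites, and the Homer3 window (chr8:70282749-70283048, plus strand) because Homer3 had the largest difference between KI and WT among the scaffold genes.
Dlg1: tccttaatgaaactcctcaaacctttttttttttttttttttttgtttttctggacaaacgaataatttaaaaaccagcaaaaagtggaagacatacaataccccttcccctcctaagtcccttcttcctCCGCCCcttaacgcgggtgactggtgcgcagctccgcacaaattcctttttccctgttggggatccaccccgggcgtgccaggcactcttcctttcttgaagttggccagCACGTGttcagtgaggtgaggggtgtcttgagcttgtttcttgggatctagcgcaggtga
Dlg4: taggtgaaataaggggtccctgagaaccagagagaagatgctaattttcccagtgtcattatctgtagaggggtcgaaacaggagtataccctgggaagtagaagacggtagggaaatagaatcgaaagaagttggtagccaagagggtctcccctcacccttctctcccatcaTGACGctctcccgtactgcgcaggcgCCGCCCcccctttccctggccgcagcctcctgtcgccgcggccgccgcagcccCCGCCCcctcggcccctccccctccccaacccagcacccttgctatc
Homer1: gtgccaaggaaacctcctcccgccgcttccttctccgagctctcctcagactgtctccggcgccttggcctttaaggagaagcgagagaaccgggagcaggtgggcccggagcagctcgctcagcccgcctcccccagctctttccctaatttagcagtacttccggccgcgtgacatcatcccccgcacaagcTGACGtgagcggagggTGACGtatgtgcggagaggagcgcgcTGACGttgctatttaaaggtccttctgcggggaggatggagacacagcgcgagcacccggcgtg
Homer3: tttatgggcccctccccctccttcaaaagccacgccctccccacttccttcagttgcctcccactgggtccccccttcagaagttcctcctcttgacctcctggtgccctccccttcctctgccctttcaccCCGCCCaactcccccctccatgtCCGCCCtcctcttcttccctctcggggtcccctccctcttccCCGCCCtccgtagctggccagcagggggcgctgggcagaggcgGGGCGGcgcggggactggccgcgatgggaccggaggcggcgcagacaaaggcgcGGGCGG

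The E-box was present in 2 of the 18 scaffold windows, against 7.15% of all 32817 RefSeq windows. The full cyclic AMP response element (TGACGTCA), which contains the half-site, was in 0 of the 18 windows and in 1.79% of all windows. The half-site was searched after the windows had been seen. It was present in 3 of the 18 windows, of Dlg3, Dlg4 and Homer1, and in 20.8% of all windows, while 1.03% of all windows had at least 3 copies as the Homer1 window did. The GC box was in 7 of 18 windows and 35.6% of all. A Homer2 window held the most copies, 8, followed by the Homer3 window with 5 and the Shank3 window with 4. At least 5 copies were present in 2.71% of all windows. TATAAA was in 3 windows, of Dlg1, Dlg2 and Homer2, and in 13.6% of all windows. Guanine and cytosine made up a median of 54.5% of the bases of the scaffold windows and 52.7% of those of all windows. A match is a run of letters and does not show that a factor binds there.

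Expression was deposited as RPKM, in which reads are divided by the exon length of the gene and the depth of the library, and the mapped reads of the samples, worked out from the steps between values, ranged from 8827967 in WT replicate 2 to 14949756 in KI replicate 2. The targeted gene Kdm1a stood at 11.6 and 11.2 RPKM in WT and 10.97 and 11.2 RPKM in KI. The knock-in changes 1 amino acid of the protein, so this level does not check the genotype. All 10 marker genes of hippocampal principal neurons were measured. Their sum was lower in both KI samples, at 350 and 355 RPKM in WT and 327 and 345 RPKM in KI. Both KI values were below WT in 3 of the 10 genes, above in 1 and overlapping in 6, beside 18.1% below and 24% above over all genes tested. Among those below were C1ql2, at 41.8 and 44.0 RPKM in WT and 30.7 and 34.2 RPKM in KI, and Prox1, at 17.3 and 16.9 against 10.2 and 13.1 RPKM. Neurod6 and Wfs1 overlapped. The sum without C1ql2 and Prox1 was not computed. Summed interneuron markers were also lower in both KI samples, at 413 and 420 against 383 and 377 RPKM. By gene, both KI values were below WT in 2 of the 7, above in 2 and overlapping in 3. Higher in both KI samples were the sums of neocortical markers, at 49.3 and 52.3 RPKM in WT and 58.3 and 56.1 RPKM in KI, and those of striatal, thalamic, endothelial and astrocyte markers. Both KI values were above WT in 4 of 7 striatal, 1 of 4 thalamic, 3 of 6 endothelial and 3 of 6 astrocyte genes tested. They were both below in 1, 1, 2 and 1 of these genes. KI exceeded WT without overlap in 5 of the 7 neocortical genes and in 3 of the 5 cerebellar genes listed, beside 24% of all genes, and the cerebellar sums overlapped. Of the cerebellar genes, Pvalb was also in the interneuron list, and Calb1 and Car8 overlapped. Pcp2 stood at 2.08 and 2.04 RPKM in WT and 2.21 and 2.23 RPKM in KI. KI replicate 1 had the highest summed level of choroid plexus markers, at 60.6 RPKM against 14.1 to 19.7 RPKM in the other samples, where Ttr made up most of the sum, and the highest of oligodendrocyte markers, at 998 RPKM against 756 to 897 RPKM. The part of these levels in the results on scaffold genes was not tested.

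None of the 10 scaffold genes differed between KI and WT past the threshold. The comparison was made with limma on log2(RPKM + 1) over 18436 genes, and a gene counted as past the threshold with a Benjamini-Hochberg adjusted p under 0.1 and a difference of at least 1.2-fold. This called 0 of the 10 scaffold genes and 0 of all genes (0% called), and at an unadjusted p under 0.05 limma found 0 scaffold genes and 9.62% of all genes. With voom, a limma variant that weights each value by its read number, applied to the recovered reads, 0 scaffold genes passed the threshold against 1.27% of all genes, and 1, Homer3, had an unadjusted p under 0.05 against 11.5%. The median log2 fold change was -0.07 for the Dlg genes, 0.00 for the Shank genes and 0.11 for the Homer genes, beside 0.01 over all genes tested. All 10 genes passed the filter on low values, and 544 to 11484 reads stood behind each value. The median coefficient of variation over the 4 samples was 4.699% for the scaffold genes and 8.64% for all genes tested. All 10 scaffold genes lay at or above the 63.6th percentile of level, and genes of matched level were not compared.

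The bounds that these samples set differed between families. All 10 confidence intervals (95%) lay within 1.5-fold in both directions, and 6 of them lay within 1.2-fold. These 6 were 3 Dlg and 3 Shank genes, with Dlg1 and the 3 Homer genes outside. For 2 scaffold genes, Homer2 and Homer3, both KI samples exceeded both WT samples, beside 24% of all genes tested. For 2 others, Dlg3 and Dlg4, both KI samples were lower, beside 18.1% of all genes. The 4 genes without overlap stand beside 42.2% of all genes, and the groups overlapped for the remaining 6.

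**Figure D1:**
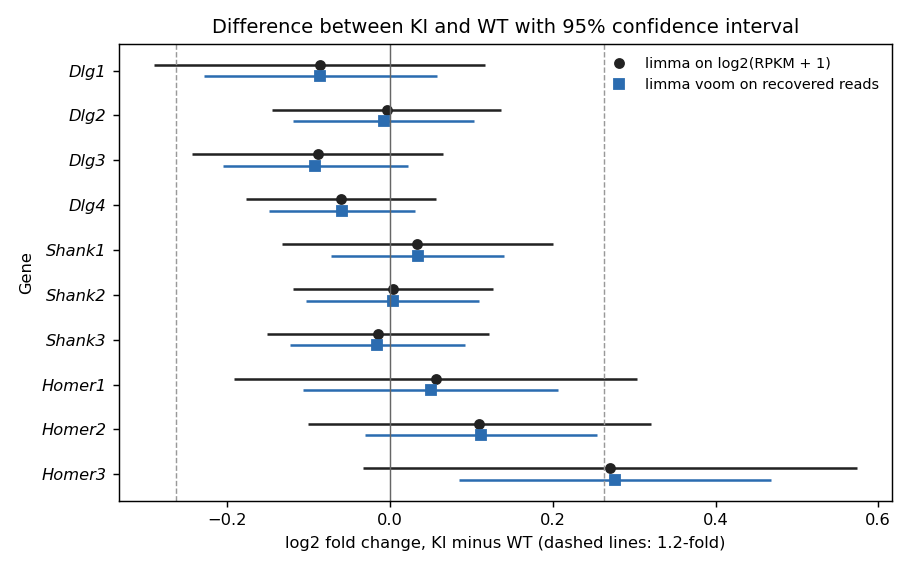
Difference between KI and WT for each scaffold gene (horizontal axis, log2 fold change; dashed lines, 1.2-fold), as the estimate and its 95% confidence interval from limma on log2(RPKM + 1) (black circles) and from voom on the recovered reads (blue squares). Both methods place 9 of the genes between the dashed lines and Homer3 at 0.27 and 0.28, and the voom interval of Homer3 is the only one that does not reach 0.

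Among the scaffold genes, levels spanned from Homer1 at 9.38 RPKM to Dlg4 at 156 RPKM as means over the 4 samples, which is from the 63.6th to the 98.7th percentile of all genes tested. From high to low the order was Dlg4, Shank1, Dlg3, Shank3, Shank2, Dlg2, Homer3, Dlg1, Homer2 and Homer1. This order rests on the exon lengths used for RPKM, which are given below for the Dlg genes. Each neighbouring pair kept this order in 4 of 4 samples, except Dlg2 with Homer3 and Homer2 with Homer1, which kept it in 3 of 4 and whose ranges overlapped. The summed level of the 10 genes was 421 and 420 RPKM in WT and 422 and 412 RPKM in KI.

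**Figure D2:**
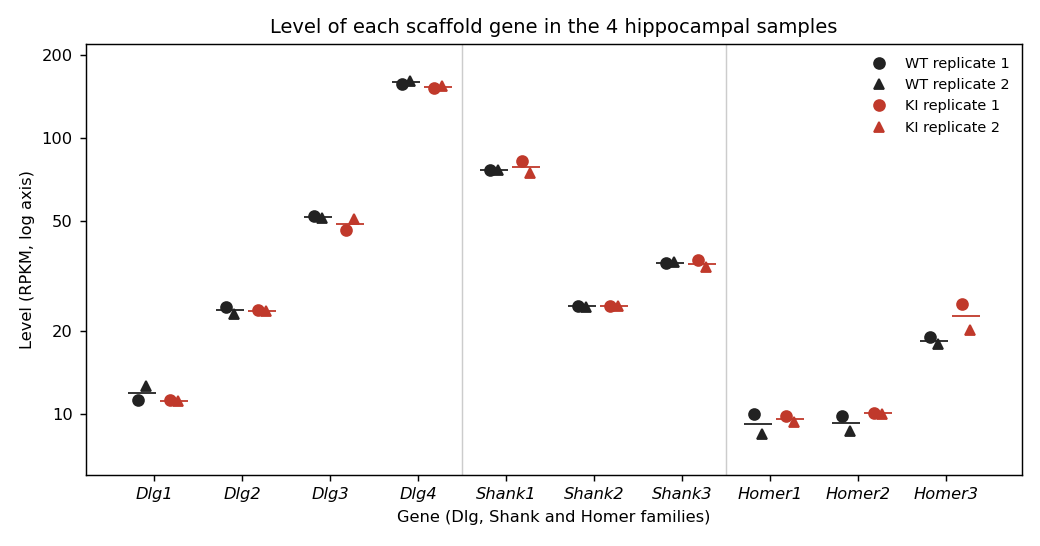
Level of each scaffold gene in RPKM on a log axis, with 1 point per sample (black, WT; red, KI; circles, replicate 1; triangles, replicate 2) and a horizontal line at each group's mean. Dlg4 lies highest, between 152 and 162 RPKM, and on this log axis the KI samples of Homer3, at 25.1 and 20.1 RPKM, lie farthest apart.

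Of the Dlg genes, Dlg4 (ENSMUSG00000020886, chr11:70016942-70047522, plus strand), which encodes PSD-95, was measured at 157 and 162 RPKM in WT and 152 and 154 RPKM in KI. Both KI samples lay below both WT samples, with 3.28 RPKM between the groups. The log2 fold change was -0.06 (SE 0.04, 95% interval -0.18 to 0.06, limma adjusted p = 0.702), so that a fall of more than 1.2-fold lay outside the interval. Dlg3 (ENSMUSG00000000881, chrX:100767722-100818410, plus strand) encodes SAP102, the family member prominent early in synapse development. Its level was 52.4 and 51.3 RPKM in WT and 46.6 and 50.7 RPKM in KI. The KI samples were again lower, but KI replicate 2 lay only 0.521 RPKM below the nearest WT sample while the KI samples were 4.10 RPKM apart. The log2 fold change of Dlg3 was -0.09 (SE 0.06, interval -0.24 to 0.07, limma adjusted p = 0.668).

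Dlg2 (ENSMUSG00000052572, chr7:90476672-92449247, plus strand), which encodes PSD-93, and Dlg1 (ENSMUSG00000022770, chr16:31663443-31875129, plus strand), which encodes SAP97, a protein also found in epithelia, overlapped between the groups. Dlg2 stood at 24.4 and 23.1 RPKM in WT and 23.8 and 23.5 RPKM in KI, and its log2 fold change was -0.004 (interval -0.15 to 0.14, limma adjusted p = 0.989). Dlg1 stood at 11.2 and 12.7 RPKM in WT and 11.2 and 11.1 RPKM in KI, where only WT replicate 2, the sample of lowest depth, was apart from the others. Its log2 fold change was -0.09 (interval -0.29 to 0.12, limma adjusted p = 0.759), and -0.0047 without WT replicate 2. The value of Dlg2 may include reads of 2 predicted transcripts on the same strand that share 225 bases of its exons.

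Of the Shank genes, Shank1 (ENSMUSG00000038738, chr7:44310253-44360572, plus strand) was the most abundant, at 76.7 and 77.0 RPKM in WT and 82.7 and 74.8 RPKM in KI. The KI samples lay on either side of the WT samples, and the log2 fold change was 0.03 (SE 0.06, interval -0.13 to 0.20, limma adjusted p = 0.905). Shank3 (ENSMUSG00000022623, chr15:89499623-89560261, plus strand) showed the same arrangement, with 35.3 and 35.4 RPKM in WT and 36.0 and 34.0 RPKM in KI. Its log2 fold change was -0.01 (SE 0.05, interval -0.15 to 0.12, limma adjusted p = 0.955). Shank2 (ENSMUSG00000037541, chr7:144001928-144424494, plus strand) had the smallest spread of the 10 genes, with 24.7 and 24.5 RPKM in WT and 24.6 and 24.7 RPKM in KI. That is a coefficient of variation of 0.454% over the 4 samples, below the 2.08% that counting error alone gives for its 2301 reads in WT replicate 2. The interval of its difference was -0.12 to 0.13 on the log2 scale. Exons of Shank1 and Shank3 share 339 and 271 bases with genes on the opposite strand, and counting by strand is not stated.

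Of the Homer genes, Homer3 (ENSMUSG00000003573, chr8:70282827-70294361, plus strand), a member of the long, coiled-coil type, had the largest difference of the 10 scaffold genes. It was measured at 19.0 and 17.9 RPKM in WT (18.4 ± 0.741, SD, n = 2) and 25.1 and 20.1 RPKM in KI (22.6 ± 3.53, SD, n = 2), from 875, 544, 1240 and 1032 reads. Both KI samples were higher, by 22.4% in the mean, but KI replicate 2 lay 1.11 RPKM above the nearest WT sample while the KI samples lay 4.998 RPKM apart. The log2 fold change was 0.27 (SE 0.11, interval -0.03 to 0.57), which did not pass the test, with an unadjusted p of 0.0700 and an adjusted p of 0.543 from limma, and 12.5% of all genes tested had a larger difference in either direction. With voom the log2 fold change was 0.28 (interval 0.09 to 0.47, unadjusted p = 0.00734, adjusted p = 0.203), and over all alternatives the adjusted p ran from 0.203 to 0.806. Without KI replicate 1, the sample with the highest choroid plexus and oligodendrocyte markers, it was 0.12, and without KI replicate 2 it was 0.42. Of the exons of Homer3, 874 of 3440 bases (25.4%) lie on the strand opposite to exons of Ddx49, an RNA helicase gene that stood at 14.7 and 16.8 RPKM in WT and 17.5 and 15.6 RPKM in KI, and the share of its reads counted for Homer3 was not tested.

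Homer2 (ENSMUSG00000025813, chr7:81600481-81707527, minus strand) stood at 9.84 and 8.65 RPKM in WT and 10.1 and 9.98 RPKM in KI. The KI samples were both higher, by as little as 0.142 RPKM, and WT replicate 2 was apart from the other 3 samples. Its log2 fold change was 0.11 (SE 0.08, interval -0.10 to 0.32, limma adjusted p = 0.701). Exons of Homer2 share 525 bases (4.16%) with Gm44570 on the opposite strand, and counting by strand is not stated. Homer1 (ENSMUSG00000007617, chr13:93299635-93405129, plus strand) stood at 9.94 and 8.43 RPKM in WT and 9.81 and 9.32 RPKM in KI, and the groups overlapped. Its log2 fold change was 0.06 (SE 0.09, interval -0.19 to 0.30, limma adjusted p = 0.889). These values count all transcripts of the gene, so the short, activity-induced form of Homer1 was not measured apart from the long forms. Summed immediate early genes were 202 and 184 RPKM in WT and 214 and 210 RPKM in KI. Both KI values were above both WT values in 5 of the 9 tested, beside 24% of all genes, below in 1, beside 18.1%, and overlapping in 3.

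**Figure D3:**
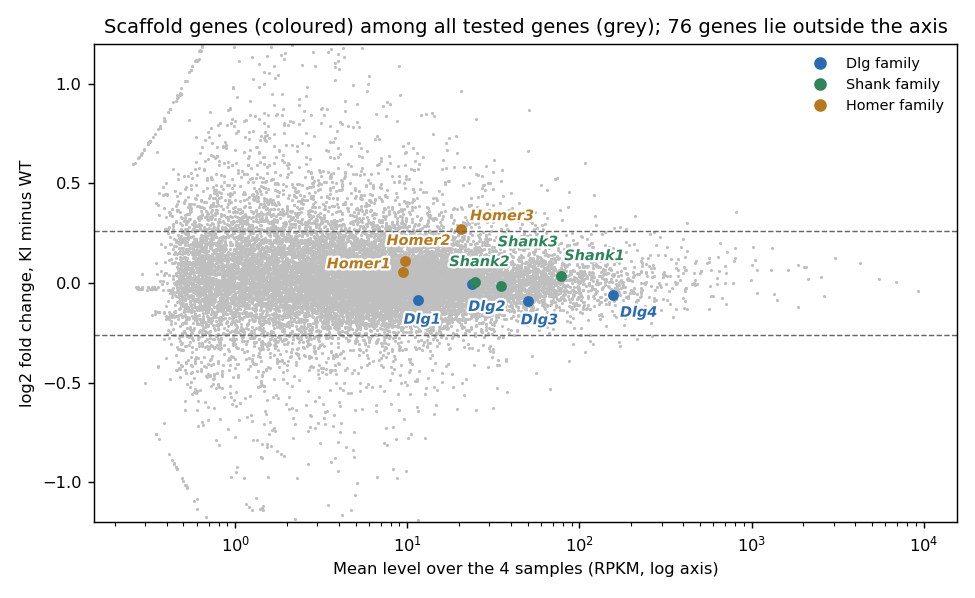
Log2 fold change between KI and WT (vertical axis; dashed lines, 1.2-fold) against mean level in RPKM on a log axis for the 18436 genes tested (grey) and the scaffold genes (blue, Dlg; green, Shank; brown, Homer). Homer3 is the scaffold gene outside the dashed lines, and 86.9% of all genes tested lie between them.

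The order of the genes within the Dlg and Shank families was the same in all 4 samples. RPKM is scaled by exon length, so levels of the genes of a family compare only under the lengths used. Those were of all exons annotated in Ensembl release 74. For Dlg4 the length was 4982 bases there and 13251 in GENCODE M21, and for Dlg2 it was 10345 and 16280. For Dlg1 it was 8963 and 10736, and for Dlg3 5844 in both. Of the Shank and Homer genes only Homer3 had the same length in both. Shares and order under the GENCODE M21 lengths were not computed. The share of a gene in the summed RPKM of its family does not depend on how samples are scaled. Dlg4 made up 64.6% ± 0.599 (SD, n = 2) of Dlg expression in WT and 64.7% ± 0.442 in KI, followed by Dlg3 at 20.98% and 20.6%, Dlg2 at 9.62% and 10.02%, and Dlg1 at 4.82% and 4.72%. The samples of the groups overlapped for each of these 4 shares. Shank1 made up 56.2% ± 0.124 of Shank expression in WT and 56.9% ± 1.18 in KI. The share of Shank3 was 25.85% and 25.87% in WT and 25.1% and 25.5% in KI, so that both KI values were lower, and Shank2 made up the rest, at 18.0% in WT and 17.8% in KI.

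Within the Homer family, Homer3 held 48.9% and 51.2% of expression in WT and 55.7% and 51.0% in KI, which overlapped. Homer1 held 25.7% and 24.1% in WT and 21.8% and 23.7% in KI, and both KI values were lower. Homer2 held 25.0% ± 0.481 in WT and 23.9% ± 2.06 in KI. An exact permutation test (two-sided) gave p = 0.333 for the shares of Shank3 and Homer1, which is the smallest value that 2 samples against 2 allow. The summed Homer level was 38.7 and 35.0 RPKM in WT and 45.0 and 39.4 RPKM in KI, and the summed Dlg level was 245 and 249 RPKM in WT and 233 and 240 RPKM in KI. The ratio of Dlg to Homer expression was thus 6.34 and 7.10 in WT and 5.19 and 6.08 in KI, with both KI values lower (exact permutation p = 0.333). Summed Shank levels overlapped, at 137 and 137 RPKM in WT and 143 and 133 RPKM in KI.

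**Figure D4:**
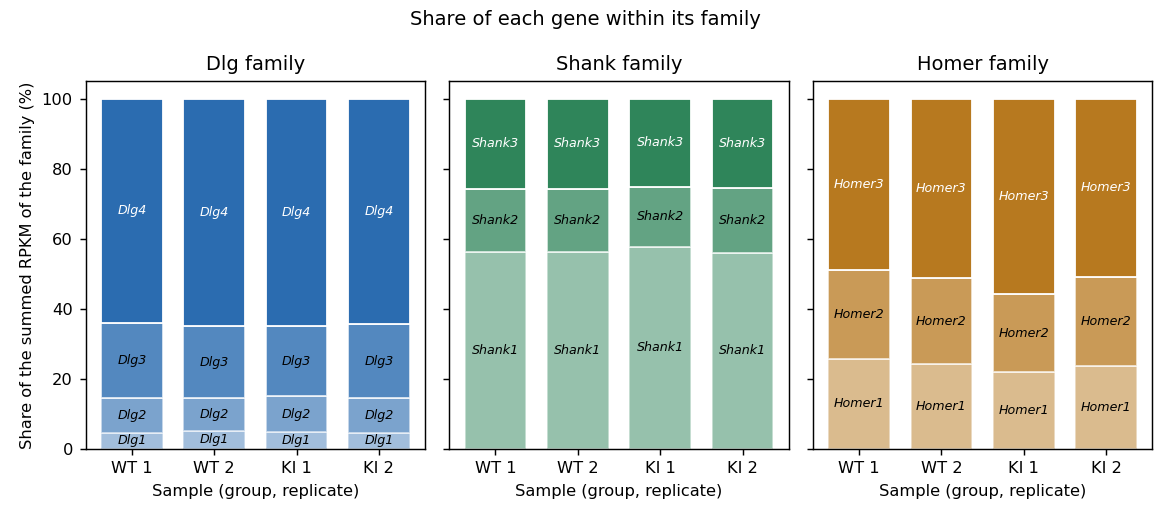
Share of each gene in the summed RPKM of its family (percent, stacked bars from 0 to 100) in each of the 4 samples. Dlg4 takes 64.2 to 65.0% of the Dlg family and Shank1 takes 56.0 to 57.7% of the Shank family in every sample, and the Homer3 share is highest in KI replicate 1, at 55.7%.

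The genes nearest in level and pattern to 4 scaffold genes were found by Euclidean distance in log2(RPKM + 1) over the 4 samples. For Dlg4 they were Map1a, a microtubule-associated protein gene, at a distance of 0.077, Prkar1a at 0.090 and Nckap1 at 0.096. For Shank1 they were 1700029I15Rik at 0.038, Adgrb1 at 0.044 and Apba2 at 0.053. Shank3 was nearest to Hnrnpul1, Tmem150b and Stx6, at 0.025, 0.049 and 0.050, and Homer1 to Vsig2, Gm15350 and Gm17251, at 0.067, 0.072 and 0.078. The distance includes the level itself, so it favours genes of equal level.

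Of 70 genes of binding partners and related scaffold proteins, each counted once, 0 passed the threshold. All 70 were tested, and limma found 7 of them at an unadjusted p under 0.05, of which 3 were higher and 4 lower in KI (6.3% and 3.33% of all genes), with a smallest adjusted p of 0.360. With voom 2 of the 70 partner genes, Grin2d and Arc, passed the threshold, beside 1.27% of all genes. At an unadjusted p under 0.05 voom found 21 of the 70, beside 11.5% of all genes. The groups overlapped for 31 of the 70 genes, while KI was the higher in 14 and the lower in 25, beside 24% and 18.1% of all genes tested. The median log2 fold change of the 70 genes was -0.02.

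Partners of Dlg proteins at the membrane, which are receptors, channels and adhesion molecules, numbered 19, with a median log2 fold change of 0.00. In 3 of them both KI values were above and in 5 both were below the WT values, where all genes give 24% and 18.1%. Grin2d, which encodes a slow NMDA receptor subunit, had the largest difference among all partners. It was measured at 3.52 and 3.75 RPKM in WT and 5.22 and 4.99 RPKM in KI, with no overlap, and a log2 fold change of 0.40 (SE 0.08, limma adjusted p = 0.360). With voom the log2 fold change of Grin2d was 0.50 (interval 0.29 to 0.70, adjusted p = 0.0242), and its adjusted p ran from 0.0242 to 0.721 over all alternatives. Cacng4, an AMPA receptor auxiliary subunit gene, came next in this list with a log2 fold change of 0.28 (limma adjusted p = 0.435). At the other end, Nlgn1, the gene of the adhesion molecule neuroligin 1, and Grin2b, that of an NMDA receptor subunit bound by PSD-95, had log2 fold changes of -0.16 and -0.14. Their limma adjusted p values were 0.520 and 0.608.

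Among the 19 cytoplasmic partners of Dlg proteins, 9 had both KI values below both WT values (18.1% of all genes) and 3 had them above (24%), with a median log2 fold change of -0.04. Arc, an immediate early gene whose protein acts in AMPA receptor removal, stood at 61.7 and 52.3 RPKM in WT and 70.1 and 69.8 RPKM in KI. Both KI samples were higher and lay close together, with a log2 fold change of 0.30 (SE 0.09, limma adjusted p = 0.476). With voom the log2 fold change of Arc was 0.29 (interval 0.15 to 0.43, adjusted p = 0.0551), and its adjusted p ran from 0.0551 to 0.73 over all alternatives. The adaptor gene Lin7a had a log2 fold change of 0.18 while its paralog Lin7c stood at -0.22, and Nos1, the neuronal nitric oxide synthase gene, at -0.21.

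Of the 14 Shank partners, 3 had both KI values above (24% of all genes) and 6 had both below (18.1%) the WT values, with a median log2 fold change of -0.02. Dlgap1, Dlgap2, Dlgap3 and Dlgap4 are also in the list of cytoplasmic Dlg partners, so the counts of these lists are not independent. Dlgap2, a gene of the link between the Dlg and Shank layers, stood at 13.9 and 14.3 RPKM in WT and 12.6 and 12.1 RPKM in KI, without overlap. Its log2 fold change was -0.18 (SE 0.06, limma adjusted p = 0.490). Sptan1, which encodes a spectrin, had a log2 fold change of -0.11, and the largest values were those of Sstr2, a somatostatin receptor gene, at 0.27 and Dnm2, a dynamin gene, at 0.10.

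Of the 12 Homer partners, 4 had both KI values above (24% of all genes) and 2 had both below (18.1%) the WT values, and the median log2 fold change was 0.03. Of the calcium release channel genes of this list, Ryr2 stood at -0.17 (limma adjusted p = 0.490), Ryr1 at -0.13 (limma adjusted p = 0.829) and Itpr1 at -0.12. Ryr1 overlapped between the groups, at 4.22 and 4.48 RPKM in WT and 3.20 and 4.66 RPKM in KI. Itpr3 stood at 0.26, from a level of 0.592 to 1.21 RPKM. Among 10 other scaffold genes with PDZ domains, 2 had both KI values above (24% of all genes) and 5 had both below (18.1%), with a median of -0.04. The ends of that list were Grip1 at -0.18 and Tjp1 at -0.17, and Grip2 at 0.21 and Magi3 at 0.08.

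**Figure D5:**
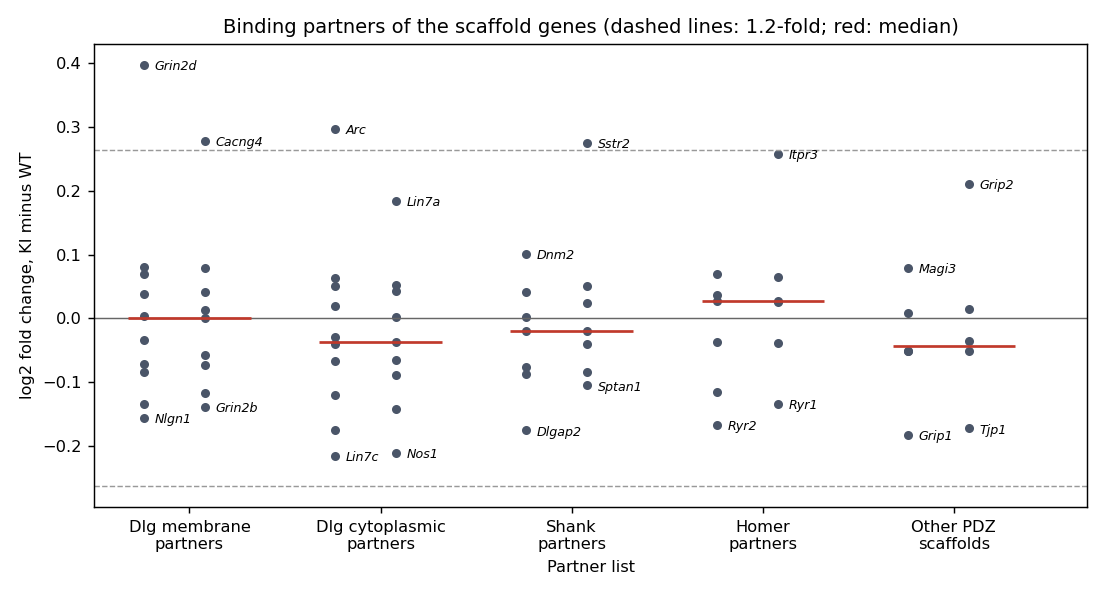
Log2 fold change between KI and WT (vertical axis, with dashed lines at 1.2-fold) for the genes of the 5 partner lists. Each list has 1 point per gene and a red line at its median. Dlgap1, Dlgap2, Dlgap3 and Dlgap4 are drawn both as cytoplasmic Dlg partners and as Shank partners. The position of points within a list carries no meaning. The genes whose log2 fold change is given in the text are named, except Itpr1. Grin2d lies highest at 0.40, and the medians run from -0.04 to 0.03.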

How the data were processed

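Poly(A) RNA of 2 WT and 2 KI hippocampal samples was sequenced by the authors, aligned to mm10 with GSNAP and counted on the genes of Ensembl release 74. The authors deposited RPKM values, in 1 file per sample and without a stated normalization between samples. A gene not listed in a sample was given 0. Groups were taken from the labels.

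RPKM values were compared with limma 3.58.1 (R 4.3.3), two-sided, with a mean-variance trend, on log2(RPKM + 1), which understates differences of low genes. Only genes that reached 0.5 RPKM in 2 or more samples were tested, and p values were adjusted by Benjamini-Hochberg over all of them. RPKM steps gave whole reads (tolerance 1e-06) for all but 1 of 26328 genes, with exon lengths from GENCODE M21 for 15467 genes and lengths solved from the values for 10860. Whether 1 read stands for a pair is not stated. Voom on these reads was added after the data had been seen. The precision of reads covers counting error only. Symbols, coordinates and exons are those of GENCODE M21 (GRCm38, the build of mm10), and 25729 of 26328 identifiers matched a symbol.

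The scaffold genes and lists were chosen with earlier results of these data known. All 10 scaffold genes were described, and of each partner list the 2 genes with the largest and the 2 with the smallest log2 fold change were named, except 1 result that is not reported here. The 3 nearest genes were named for Dlg4, Shank1, Shank3 and Homer1. Grin2d and Arc are also named for their voom calls, and Itpr1 as a further calcium release channel gene. Same-numbered samples did not deviate together (Pearson r = -0.0249 over 18436 genes, with no p since genes are not replicates). The code was tested on simulated data. Python 3.11.15 with pandas 2.3.3, numpy 2.4.6, scipy 1.17.1 and matplotlib 3.10.9 served for the rest.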

Additional observations from a re-analysis of the deposited data

How the results depend on the processing

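The 13 alternatives included a pseudocount of 0.1, no filter on low values, at least 1 RPKM in all 4 samples and a replicate block. Others were median-ratio scaling, quantile normalization, no mean-variance trend and a threshold of 1.5-fold. The rest were voom on the recovered reads (chosen after seeing the data) and each of 4 samples left out. With all 4 samples kept, the count of scaffold genes past the threshold stayed at 0 under each alternative. The 1.5-fold threshold could not raise the 0 of the main fit, so its count was fixed in advance. Over all genes the count was 0 except without a trend, where it was 20, and with voom, where it was 234. The count of partner genes was 2 with voom and 0 otherwise. At an unadjusted p under 0.05, partner genes numbered 21 with voom, 12 with median-ratio scaling, 11 with quantile normalization and 3 with the replicate block. All genes numbered 2129, 1791, 1776 and 1550 of 18436 in these fits. The cause of these differences was not tested. The replicate block gave 0 genes over all, 0 scaffold genes and 0 partner genes past the threshold, and changed no call. Scaffold genes at an unadjusted p under 0.05 numbered 1 with the block, with voom and without KI replicate 2, beside 1550, 2129 and 1515 of 18436 genes, and 0 in the other fits. Leaving out 1 sample gave 2 to 5 scaffold genes with KI above WT, with 5 without WT replicate 1 and 4 without KI replicate 2, where 38.1% and 37.9% of all genes did so. It gave 2 to 5 with KI below, with 5 without KI replicate 1 and 4 without WT replicate 2, where 30.5% and 31% of all genes did so. After median-ratio scaling the counts were 1 above and 3 below. Leaving out 1 sample moved the median log2 fold change from -0.076 to -0.039 for Dlg, from -0.038 to 0.027 for Shank and from 0.026 to 0.19 for Homer genes. Shank2 turned to -0.013 on the log2 scale under median-ratio scaling. With 1 sample left out, log2 fold changes that turned direction ran from -0.043 to 0.034 for Dlg2, -0.038 to 0.11 for Shank1, -0.0031 to 0.01003 for Shank2, -0.057 to 0.027 for Shank3 and -0.051 to 0.16 for Homer1. Differences in share (KI minus WT, percentage points) that turned direction ran from -0.374 to 0.158 for Dlg1, -0.993 to 0.204 for Dlg3, -0.317 to 0.530 for Dlg4, -0.132 to 1.54 for Shank1, -0.823 to 0.536 for Shank2 and -2.62 to 0.300 for Homer2. The log2 fold changes of Dlg1, Dlg3, Dlg4, Homer2 and Homer3 kept their direction in all 12 alternatives that give one, with adjusted p of 0.203 to 0.806 for Homer3, and their leave-one-out ranges were -0.17 to -0.0047 for Dlg1 (the latter without WT replicate 2), -0.15 to -0.030 for Dlg3, -0.079 to -0.042 for Dlg4, 0.026 to 0.19 for Homer2 and 0.12 to 0.42 for Homer3. With 2 samples a group, the limma intervals of Dlg1 and the Homer genes reached past 1.2-fold, so differences of that size were not excluded for them. The intervals of this limma fit included 0 for all 10 genes, so it resolved smaller differences for none of them. The voom interval of Homer3, 0.09 to 0.47, did not include 0, with a voom adjusted p of 0.203.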
